A study of Mus musculus with 20 samples.

Results

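The step described here is the late part of an Epo time course: fetal liver CFU-E cells held with Epo for 14, 19 and 24 h (3 arrays) were set against the same kind of cells held with Epo for 6, 7 and 8 h (3 arrays). These are 6 of the 20 arrays of the series, chosen by the hour in their titles. The earlier hours with Epo and the arrays without Epo are not described. All 6 samples came from the livers of BALB/c mouse embryos at stage E13.5. Red cells were lysed, and cells carrying TER119 or markers of granulocytes, macrophages, megakaryocytes and lymphocytes were removed with antibodies and magnetic beads. The series' design text has the fresh cells starved for 1 h and then given Epo at 0.5 U/ml, whereas the treatment notes of the samples describe 12 to 14 h of culture with serum and Epo at that dose after sorting, and the labels do not say how the 2 accounts fit together. No genotype or other treatment is given for either group. The title of the study asks how feedback inhibitors keep JAK2 and STAT5 signalling in check over a wide range of ligand.

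CFU-E, the erythroid colony-forming unit, is the progenitor that depends on Epo (erythropoietin) to survive and mature. Epo binds its receptor Epor, the kinase JAK2 attached to the receptor phosphorylates STAT5, and STAT5 drives survival genes together with inhibitors of the pathway such as Cish and the Socs proteins. As CFU-E mature into erythroblasts, they make hemoglobin and a flexible membrane skeleton, divide a few more times, and then leave the cell cycle, lose organelles and expel the nucleus.

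Each hour is 1 array, so hours 14, 19 and 24 serve as the replicates of the late group and hours 6, 7 and 8 as those of the other. Steady drift inside a group therefore counts as spread. The p-values measure only how single arrays of different hours scatter, possibly for technical reasons, since no label says that the hours came from separate cultures. The late hours lie further apart than hours 6 to 8, yet the test pools the spread of both groups. Values are the deposited log2 array values. A difference is the mean of the 3 late arrays minus the mean of the 3 arrays at 6 to 8 h, given with its standard error, and a gene is said to rise or fall when limma's adjusted p is under 0.05 over all 18193 genes. An exact permutation test of 3 arrays against 3 cannot go below 0.1, so none is given.

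The cells carried the defining transcripts of the erythroid line at both stages. Klf1, a master regulator of red cell genes, read 12.24, 12.55 and 12.26 at 14, 19 and 24 h, against 11.98, 12.33 and 12.29 at 6, 7 and 8 h, and Tfrc, the transferrin receptor that brings in iron, lay between 13.14 and 13.39 late and between 13.17 and 13.31 at 6 to 8 h. Gata1, the other master regulator, lay between 10.61 and 10.92 late, against 10.38 and 10.64 at 6 to 8 h. The upper quartile of all genes was 6.98 to 7.31 in the late arrays and 7.41 to 7.50 at 6 to 8 h, well below these values. In all 3 genes the groups overlapped and the difference missed the threshold.

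The 24 h array stood apart from the other 5. Over all genes its correlation with the mean of the 6 to 8 h arrays was 0.947, against 0.977 for the 19 h array and 0.988 for the 14 h array. Its values were also the least spread, with an SD over genes of 2.42, against 2.55 to 2.56 at 14 and 19 h and 2.61 to 2.65 at 6 to 8 h. The bacterial control RNAs added at hybridisation read 0.25 to 0.89 log2 units higher at 24 h than the 6 to 8 h mean. Of these, bioB, bioC and bioD were higher in every late array than in any array at 6 to 8 h. Their late means exceeded the 6 to 8 h means by 0.52, 0.52 and 0.35, against 0.10 for cre. The polyadenylated controls added before labelling read 0.65 to 0.90 higher at 24 h, although they were lowest of all 6 arrays at 19 h. The part of the controls in the gene values was not tested. Counts without the 24 h array are given below where they matter. Leaving it out does not remove the higher bioB, bioC and bioD values at 14 and 19 h.

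Between 14 and 24 h the cells differed widely from 6 to 8 h. In all, 1045 genes (5.74%) were higher and 1851 (10.2%) were lower. Counts of risen and fallen list members below are to be read beside these shares. By at least 2-fold, 356 genes (1.96%) were higher and 1021 (5.61%) lower. After quantile normalization the 2-fold counts were 501 higher and 736 lower, so the split of higher against lower moved with the scaling. For each of these 1377 genes the 3 late values lay wholly above or wholly below the 3 values at 6 to 8 h. The same values chose these genes, so that separation was largely set in advance and is not a test. Among all genes it held for 3657 upward (20.1%) and 3787 downward (20.8%). The number of calls rests on single arrays: it was 2896 with all 6, but 169 without the 7 h array, 210 without 6 h, 257 without 19 h and 910 without 8 h, while it was 4894 without 14 h and 3289 without 24 h.

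**Figure D1:**
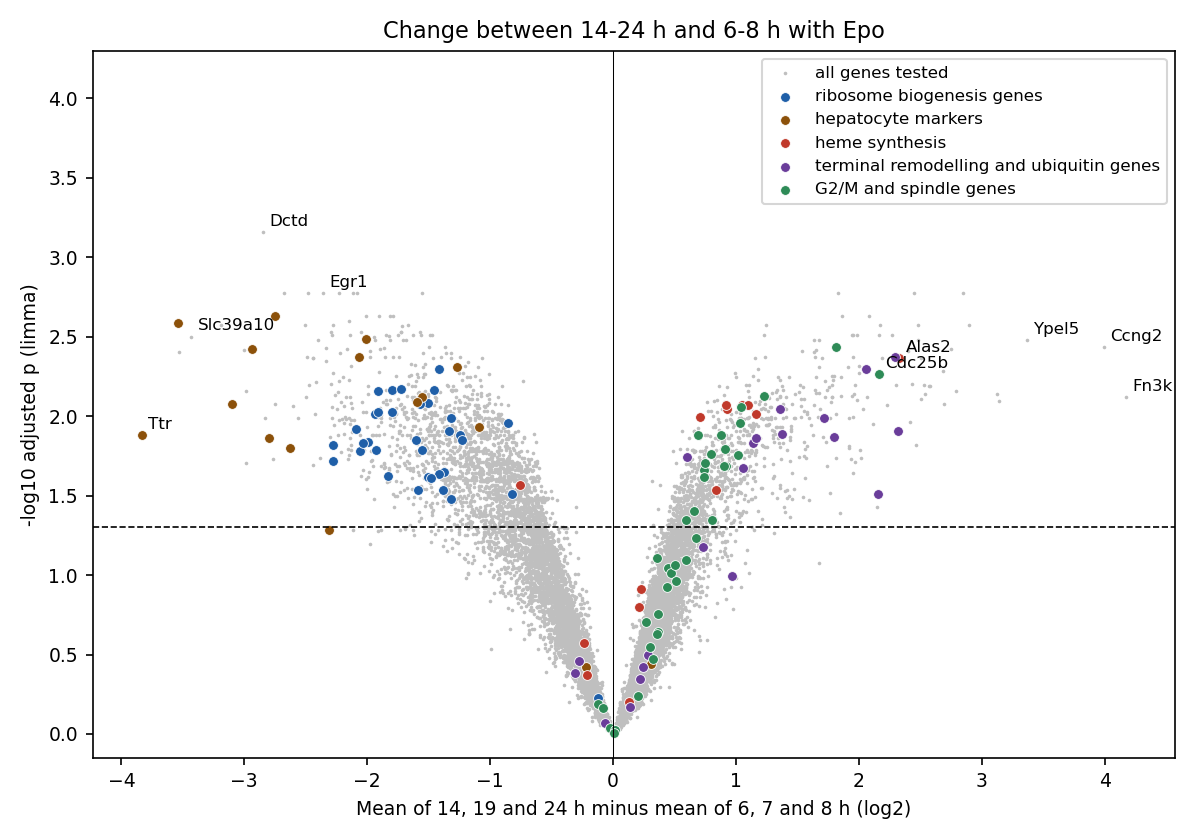
Each point is 1 of 18193 genes, with the log2 difference of the 14, 19 and 24 h mean from the 6, 7 and 8 h mean on the horizontal axis and minus log10 of the adjusted p on the vertical axis. The dashed line is adjusted p = 0.05; ribosome biogenesis genes and hepatocyte markers lie to the left, and heme synthesis, terminal remodelling and G2/M genes mostly to the right.

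The genes that climbed furthest were led by Fn3k, which encodes fructosamine-3-kinase, an enzyme that repairs glycated proteins. Its values were 6.34, 8.68 and 9.69 at 14, 19 and 24 h, against 3.65, 3.92 and 4.62 at 6, 7 and 8 h. Even the lowest late value exceeded the highest at 6 to 8 h by more than 1 log2 unit, and the difference was 4.17 ± 0.68 (SE, adjusted p = 0.00762). Next came Ccng2, the cyclin G2 gene, whose product slows the cell cycle. The arrays gave Ccng2 8.71, 10.14 and 11.19 at 14, 19 and 24 h, against 5.81, 5.80 and 6.44 at 6, 7 and 8 h, a difference of 3.99 ± 0.50 (SE, adjusted p = 0.00368). Ypel5, of the yippee-like family, followed. The log2 values of Ypel5 were 9.51, 10.59 and 11.48 at 14, 19 and 24 h, against 6.86, 7.12 and 7.51 at 6, 7 and 8 h, with no overlap and a difference of 3.37 ± 0.41 (SE, adjusted p = 0.00331). Tcp11l2 (difference 3.14), Gch1 (3.12), which encodes the first enzyme of tetrahydrobiopterin synthesis, and Rragd (2.89), a Rag GTPase that signals amino acid supply at the lysosome, completed the 6 largest rises. The other 9 of the 15 largest were Nacad, Klhl24, Ctsf, a lysosomal cathepsin, Ncf4, a subunit of the NADPH oxidase, Cdkn1b, Igtp, an interferon-inducible GTPase, Fam214b, the chemokine-binding receptor Ccrl2 and Ypel4, with differences between 2.53 and 2.85.

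Of the 15 largest falls, several belonged to hepatocyte products rather than to red cells. Ttr, the plasma carrier transthyretin, led. Ttr measured 8.02, 6.91 and 4.13 at 14, 19 and 24 h, against 10.54, 10.09 and 9.93 at 6, 7 and 8 h, a difference of -3.83 ± 0.76 (SE, adjusted p = 0.0131). The apolipoproteins Apoc2, Apoa2 and Apoa1, the fatty acid binding protein Fabp1, the corticosteroid-binding globulin Serpina6, the protease inhibitor Serpina1b and albumin (Alb) were also among the 15, with differences between -3.54 and -2.75. In bulk RNA, fewer cells of a type and less RNA per cell cannot be told apart. The remaining 7 were Slc39a10, Ydjc, Kat2a, Prelid2, Dctd, Ccdc86 and Mtm1. Slc39a10, a zinc importer, had the largest difference of these 7. For Slc39a10 the values were 4.95, 3.96 and 2.97 at 14, 19 and 24 h, against 7.66, 7.43 and 7.08 at 6, 7 and 8 h, a difference of -3.43 ± 0.41 (SE, adjusted p = 0.00315). Kat2a, a histone acetyltransferase, fell in the same steady order. Kat2a stood at 6.30, 5.20 and 3.98 at 14, 19 and 24 h, against 8.13, 8.41 and 7.90 at 6, 7 and 8 h, a difference of -2.99 ± 0.47 (SE, adjusted p = 0.00696). Dctd, the deaminase that feeds dUMP to thymidylate synthesis, had the smallest standard error of the 15. Dctd read 4.48, 4.14 and 3.99 at 14, 19 and 24 h, against 7.08, 7.17 and 6.90 at 6, 7 and 8 h, a difference of -2.84 ± 0.19 (SE, adjusted p = 0.000693). A second probe set of Prelid2 went the opposite way, and of 2 other probe sets of Mtm1, a phosphoinositide phosphatase, 1 moved the same way. The table carries no detection calls, and the lower quartile of all genes was 3.38 to 3.54 in the late arrays, so falls that end near there are less well sized.

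**Figure D2:**
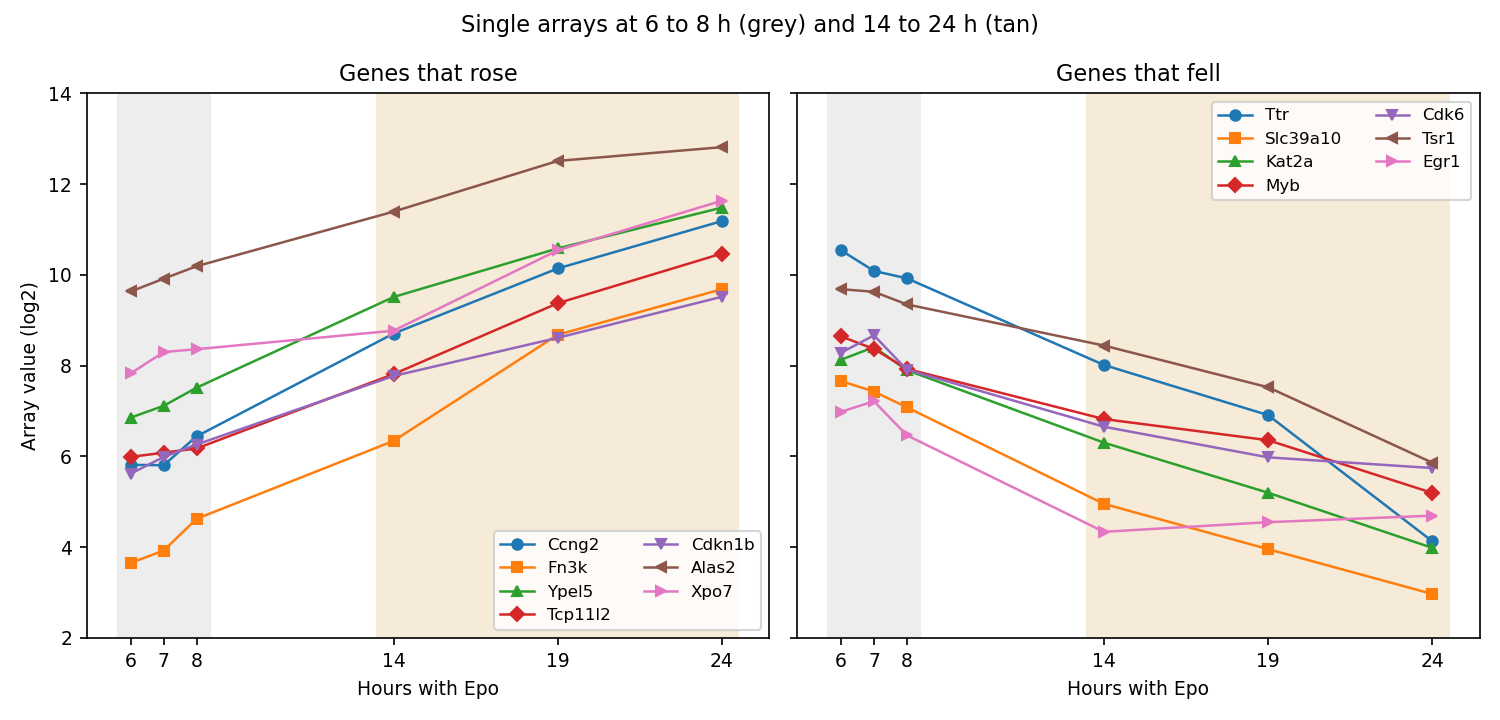
Lines join the log2 array value of single genes at 6, 7, 8, 14, 19 and 24 h with Epo, with genes that rose on the left and genes that fell on the right. Tan marks the late hours and grey the hours 6 to 8; most lines keep climbing or falling across the 3 late hours, whereas Egr1 is lowest at 14 h.

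The order over 14, 19 and 24 h was mostly monotone. Among the genes at least 2-fold higher, 258 of 356 (72.5%) climbed in the order 14, 19, 24 h, 81 (22.8%) were furthest from the start at 19 h and 5 (1.40%) at 14 h. Among those at least 2-fold lower, 854 of 1021 (83.6%) descended in that order, 63 (6.17%) were lowest at 19 h and 20 (1.96%) at 14 h. Over all genes, whichever way they moved, 38.7% were in steady order and 23.3% were furthest at 19 h. The risers stood at a median of 0.83, 1.48 and 1.74 log2 units above the 6 to 8 h mean at 14, 19 and 24 h, and the fallers at -0.84, -1.23 and -2.00. Since the same arrays chose these genes, the shares describe the called genes and are not a test. Steady order also requires the value of the 24 h array, which stood apart, to be the furthest.

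The share of the 24 h change that was already present at 14 h describes how early a gene moved on these arrays. Each share rests on 1 array at 14 h and on the 24 h array, which stood apart, so it is not a fixed trait of a gene. Its median was 48.6% for the 356 genes at least 2-fold higher (quartiles 37.6% and 58.4%) and 41.3% for the 1021 at least 2-fold lower (quartiles 32.9% and 53.1%), and 36 and 90 genes had covered at least 75% by then. Dctd had gone 84.0% of the way by 14 h and Nacad 71.4%, whereas Prelid2 had gone 25.3%. Egr1, an immediate early transcription factor, was lowest at the first late hour. Its values were 4.34, 4.55 and 4.69 at 14, 19 and 24 h, against 6.99, 7.21 and 6.46 at 6, 7 and 8 h, a difference of -2.36 ± 0.22 (SE, adjusted p = 0.00168). Bcl2l1, which encodes the survival protein BCL-XL and is a known STAT5 target, was among the latest. The arrays gave Bcl2l1 8.60, 9.37 and 10.32 at 14, 19 and 24 h, against 8.28, 8.30 and 8.28 at 6, 7 and 8 h, a difference of 1.15 ± 0.35 (SE, adjusted p = 0.0518), which missed the threshold, although its slope within the late hours passed (adjusted p = 3.22e-05). Xpo7, a nuclear exportin of maturing erythroblasts, was also late. The log2 values of Xpo7 were 8.77, 10.54 and 11.64 at 14, 19 and 24 h, against 7.83, 8.30 and 8.36 at 6, 7 and 8 h, and 17.5% of its change was present at 14 h.

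A slope across 14, 19 and 24 h was fitted beside the group difference, with the 3 arrays at 6 to 8 h lending spread and 3 residual degrees of freedom. It was upward in 943 genes (5.18%) and downward in 2104 (11.6%), and after quantile normalization in 1320 and 1684. Both the group difference and the slope passed in 1369 genes (7.52%). The tests share the late arrays and are not independent.

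Among the globins, the embryonic beta-like gene Hbb-bh1 rose most. Hbb-bh1 measured 12.87, 13.18 and 12.65 at 14, 19 and 24 h, against 11.02, 10.86 and 11.35 at 6, 7 and 8 h, a difference of 1.83 ± 0.17 (SE, adjusted p = 0.00168), with the peak at 19 h. In all, 3 of 6 globins analysed here rose (Hbb-bh1, Hbb-b2 and Hba-a2), none fell, and the list's median difference was 0.76 against 0.07 over all genes, of which 5.74% rose and 10.2% fell. Hba-a2, an adult alpha globin, rose by a difference of 0.87 ± 0.19 (SE, adjusted p = 0.0178). The Hbb-b2 value rests on a probe set that can bind its near-identical relatives. For Hbb-b2 the values were 11.21, 11.39 and 11.98 at 14, 19 and 24 h, against 9.86, 9.64 and 10.06 at 6, 7 and 8 h, a difference of 1.68 ± 0.21 (SE, adjusted p = 0.00331), while the gene's other probe set, a dim one, differed by -0.09. Hba-a1 lay between 3.60 and 3.80 late, against 3.23 to 3.34 at 6 to 8 h, near the lower quartile of the arrays. Hba-x had 7.51, 7.68 and 6.63 at 14, 19 and 24 h, against 6.49, 6.52 and 6.83 at 6, 7 and 8 h, and Hbb-y, the other embryonic beta-like gene, had 10.53, 10.37 and 11.15, against 11.01, 10.70 and 10.79, both with overlap. Probe sets that name several globin genes were not used, so the adult globins are only partly covered.

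Heme synthesis, which supplies the oxygen-binding group of hemoglobin, rose in most of its members. Of 14 genes, 8 rose and 1 fell, with a median difference of 0.77 and medians of 0.34, 0.93 and 0.93 at 14, 19 and 24 h. Alas2, the erythroid enzyme that starts the pathway, rose most. Alas2 stood at 11.40, 12.51 and 12.82 at 14, 19 and 24 h, against 9.64, 9.92 and 10.19 at 6, 7 and 8 h, a difference of 2.33 ± 0.32 (SE, adjusted p = 0.00429). Ppox, the penultimate enzyme, rose by 1.17, Abcb10, a mitochondrial transporter, by 1.10, and Uros, which closes the porphyrin ring, by 1.04. The housekeeping form Alas1 (chosen after its value was seen) was the one that fell, by 0.75, and after quantile normalization no heme gene was called lower. Around the pathway, Slc25a37, mitoferrin-1, the importer of iron into mitochondria, rose by 1.09 and Ncoa4, the receptor that sends ferritin to lysosomes, by 0.99, while Flvcr1, a heme exporter, fell by 2.13. Those 3 were the only calls among 16 iron genes.

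The Alas2 promoter is printed because Alas2 rose most among the erythroid lists and its window holds a GATA-type motif. The window runs from 250 bases before to 50 after the RefSeq start (GRCm38.p6, chromosome X, plus strand, chrX:150547167-150547466), and the capitals are TTATCT, the reverse complement of AGATAA.
Alas2: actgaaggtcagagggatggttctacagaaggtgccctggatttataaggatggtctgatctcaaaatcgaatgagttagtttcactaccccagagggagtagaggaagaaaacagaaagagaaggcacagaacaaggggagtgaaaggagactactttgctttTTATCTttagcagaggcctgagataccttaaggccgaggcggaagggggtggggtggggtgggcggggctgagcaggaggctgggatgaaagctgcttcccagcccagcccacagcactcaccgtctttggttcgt
AGATAA on either strand was present in 6 of 18 such windows of risen globin, heme, membrane and surface genes (33.3%; 18 of 25 genes matched), against 11.4% of 27025 mouse promoters. TGATAA was in 11.1% of the 18, against 9.26%, and CCACACCC in 5.56%, against 3.57%. These motif counts, and those given further below, are counts of letters, not of bound sites. Members of the same lists that were not called were not counted.

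The membrane skeleton, the protein mesh that gives red cells their shape, rose in 6 of 12 genes and fell in none, with a median of 0.65. Tmod1, which caps the short actin filaments of the mesh, had a difference of 1.55 ± 0.27 (SE, adjusted p = 0.00929). Mpp1, a membrane scaffold, rose by 1.46, Epb42, protein 4.2, by 1.36, and Dmtn, dematin, by 1.25. Of 24 genes for surface proteins, channels and carbonic anhydrases, 8 rose and 3 fell. Slc2a1, the glucose transporter GLUT1, led. Slc2a1 read 11.25, 12.24 and 12.75 at 14, 19 and 24 h, against 10.28, 10.45 and 10.40 at 6, 7 and 8 h, a difference of 1.70 ± 0.30 (SE, adjusted p = 0.00976). Rhd, a blood group protein, rose by 1.36, and Slc4a1, the anion exchanger band 3, by 0.54. In the other direction, Cd44, an adhesion receptor that erythroblasts lose as they mature, had 6.59, 6.19 and 5.19 at 14, 19 and 24 h, against 8.31, 8.26 and 7.98 at 6, 7 and 8 h, a difference of -2.20 ± 0.32 (SE, adjusted p = 0.00562), and Aqp1, the water channel, fell by 1.45.

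Erythroblasts also rebuild their contents late in maturation. Of 21 genes for ubiquitin conjugation and other late remodelling, 12 rose and none fell, with medians of 0.59, 0.99 and 1.59 at 14, 19 and 24 h, and 12 had an upward slope. Tent5c, a poly(A) polymerase, showed the slow form of this rise. Its values were 8.93, 10.17 and 11.22 at 14, 19 and 24 h, against 7.61, 7.97 and 7.78 at 6, 7 and 8 h, a difference of 2.32 ± 0.45 (SE, adjusted p = 0.0124). Cdkn2d, Xpo7 and the ubiquitin-conjugating Ube2l6 rose by 2.29, 2.15 and 2.05, and 5 of 7 other probe sets of Xpo7 moved the same way. Among 22 autophagy and mitophagy genes, 7 rose and none fell. They included the ATG8 family members Gabarap (1.54) and Map1lc3b (1.23), the initiating kinase Ulk1 (1.46) and the mitochondrial kinase Pink1 (1.36). In Ulk1, 19.1% of the 24 h change was present at 14 h, against 60.5% in Map1lc3b.

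Transcription factors of the erythroid program went both ways. Of 22, 5 rose and 2 fell. Foxo3, a forkhead factor active in erythroblasts, rose by a difference of 1.27 ± 0.24 (SE, adjusted p = 0.0112), Klf3, a repressor of the KLF family, by 1.11, and Nfe2, which binds globin control regions, by 1.09. Ikzf1, the Ikaros factor, fell by 1.15. Tal1, a bHLH partner of GATA1, had 10.45, 11.04 and 10.91 at 14, 19 and 24 h, against 10.37, 10.41 and 10.40 at 6, 7 and 8 h, without overlap but short of the threshold (adjusted p = 0.126), and Gata2, the GATA factor of earlier progenitors, had 5.58 to 5.68 late, against 5.80 to 6.13 (adjusted p = 0.193).

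Of 23 progenitor genes, 3 fell and 2 rose, close to the shares over all genes (10.2% and 5.74%), and without the 24 h array 6 fell and none rose. Myb, a transcription factor that keeps progenitors dividing, fell furthest. The arrays gave Myb 6.82, 6.36 and 5.20 at 14, 19 and 24 h, against 8.64, 8.37 and 7.93 at 6, 7 and 8 h, a difference of -2.19 ± 0.37 (SE, adjusted p = 0.00867). Myc followed by a difference of -1.29 ± 0.27 (SE, adjusted p = 0.0157), and the RNA-binding protein Igf2bp1 by 1.16, although taking the gene's brightest probe set over the 6 arrays alone gave 0.10. Kit, the receptor for stem cell factor, is a case that the 24 h array decides. The log2 values of Kit were 3.92, 3.60 and 4.86 at 14, 19 and 24 h, against 5.11, 5.00 and 5.02 at 6, 7 and 8 h, and the difference of -0.92 ± 0.28 (SE, adjusted p = 0.0531) missed the threshold, whereas it was -1.28 without 24 h and passed; a second probe set of Kit went the opposite way. The 2 progenitor genes that rose included Flt3, a receptor of earlier progenitors, at 0.62, a call that was lost without the 24 h array.

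The cell cycle genes divided by phase. Of 38 genes of G2, mitosis and the spindle, 18 rose and none fell, against 5.74% and 10.2% over all genes. In 28 of them the late values lay wholly above those at 6 to 8 h, against 20.1% over all genes. The G2/M medians were 0.47, 0.80 and 0.44 at 14, 19 and 24 h, and 27 of 38 were furthest from the start at 19 h. The count of risen genes was 27 without the 24 h array, 29 after quantile normalization and 15 with each array centred on its median. Of 37 genes of G1/S and DNA replication, 1 rose and none fell, smaller shares than over all genes. The G1/S medians were 0.16, 0.17 and -0.35 at 14, 19 and 24 h. Within the late hours 14 of the 37 had a downward slope, against 11.6% over all genes, and none an upward one, against 5.18%. The direction of the G1/S median difference of -0.03 was not stable, since quantile normalization gave 0.10.

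Cdc25b, the phosphatase that switches on CDK1 at mitotic entry, was the largest G2/M rise. Cdc25b measured 8.91, 9.83 and 10.10 at 14, 19 and 24 h, against 7.00, 7.67 and 7.68 at 6, 7 and 8 h, a difference of 2.16 ± 0.31 (SE, adjusted p = 0.00545). Nusap1, a spindle microtubule protein, peaked at 19 h. For Nusap1 the values were 10.17, 11.04 and 10.70 at 14, 19 and 24 h, against 8.64, 8.75 and 9.08 at 6, 7 and 8 h, a difference of 1.82 ± 0.23 (SE, adjusted p = 0.00367). Cenpf, of the outer kinetochore, rose by 1.22 and Ube2c, which loads ubiquitin for the anaphase-promoting complex, by 1.04. The G1/S gene that rose was Tk1, the thymidine salvage kinase, with a difference of 0.56 ± 0.16 (SE, adjusted p = 0.0442).

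**Figure D3:**
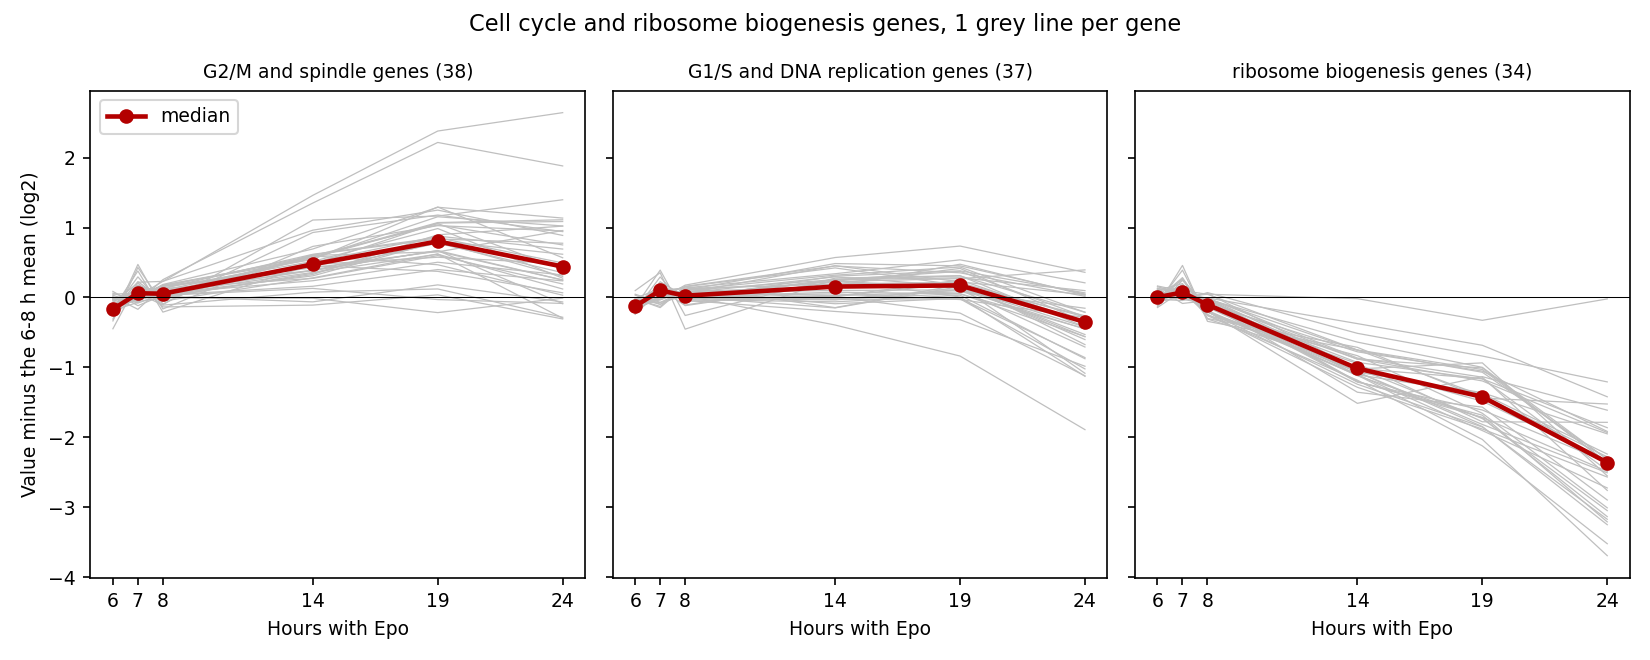
Grey lines are single genes and the red line is the list median, as the log2 value minus the 6 to 8 h mean at each hour with Epo, for G2/M (38 genes), G1/S (37) and ribosome biogenesis (34). The G2/M median peaks at 0.80 at 19 h, the G1/S median is -0.35 at 24 h, and the ribosome biogenesis median reaches -2.36 at 24 h.

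The Cdc25b promoter is shown as that of the G2/M gene with the largest rise. Its window of 250 bases before to 50 after the RefSeq start (GRCm38.p6, plus strand) is chr2:131186698-131186997, and the capitals are ATTGG, the reverse complement of CCAAT.
Cdc25b: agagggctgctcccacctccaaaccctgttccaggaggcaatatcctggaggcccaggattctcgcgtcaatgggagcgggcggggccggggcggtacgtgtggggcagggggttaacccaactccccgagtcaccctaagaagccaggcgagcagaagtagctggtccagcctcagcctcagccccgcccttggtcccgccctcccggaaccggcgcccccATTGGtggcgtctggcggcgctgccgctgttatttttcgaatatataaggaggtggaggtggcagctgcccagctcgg
CCAAT on either strand was in 10 of 16 windows of risen G2/M genes (62.5%; 16 of 18 matched), against 37.9% of all promoters. TTTGAA, the letters of the CHR element of mitotic genes, was in 62.5% of the 16, against 18.1%; it was not found in the Cdc25b window.

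While mitotic genes rose, brakes on the cycle rose too. Of 7 CDK inhibitors, 4 rose and 1 fell, with a median of 1.52. Cdkn1b, which encodes p27, was the largest. Cdkn1b stood at 7.77, 8.61 and 9.52 at 14, 19 and 24 h, against 5.62, 5.99 and 6.26 at 6, 7 and 8 h, a difference of 2.68 ± 0.38 (SE, adjusted p = 0.00516). Cdkn2c, which encodes p18, peaked at 19 h. Cdkn2c read 8.38, 9.11 and 8.80 at 14, 19 and 24 h, against 6.54, 7.06 and 7.47 at 6, 7 and 8 h, a difference of 1.74 ± 0.27 (SE, adjusted p = 0.00683). Cdkn2d and Cdkn1a, for p19 and p21, rose by 2.29 and 1.52 in steady order.

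Of 14 antiproliferative genes of the BTG, TOB, GADD45 and YPEL families with Ccng2, 7 rose and none fell, with a median of 1.21; besides Ccng2 they included Ypel5, Ypel4 and Ypel3. Of 15 genes for D cyclins, G1 kinases and their partners, 3 rose and 4 fell. Cdk6, a G1 kinase of progenitors, had 6.65, 5.98 and 5.74 at 14, 19 and 24 h, against 8.29, 8.67 and 7.91 at 6, 7 and 8 h, a difference of -2.16 ± 0.28 (SE, adjusted p = 0.00376), although 1 of 2 further probe sets went up. Ccnd2, cyclin D2, fell by 1.58 and E2f3 by 1.16, while Rb1, the retinoblastoma protein that holds E2F factors, rose by 1.36. Ccnd3, the cyclin D of erythroblast division, differed by 0.49 ± 0.17 (SE, adjusted p = 0.0774), with values of 10.91 to 11.34 late, against 10.30 to 10.71 at 6 to 8 h.

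The MYC network shifted in the same hours. Of 14 members, 4 rose and 4 fell. Mxd1 and Mxd3, antagonists of MYC at its MAX partner, rose by 1.57 and 1.53, Mxd3 with 94.5% of its change in place at 14 h and Mxd1 with 29.5%. Myc and Mlxip, a MLX partner that senses glucose products, fell by 1.29 and 1.33.

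Ribosome biogenesis, the nucleolar work of making ribosomes, had the largest share of called members among the 50 lists. Of 34 genes, 33 fell and none rose, with a median of -1.56 and medians of -1.02, -1.42 and -2.36 at 14, 19 and 24 h, and 31 had a downward slope. The count was 33 without the 24 h array, without the 14 h array and after quantile normalization. Tsr1, needed for the small subunit, had the largest fall. Its values were 8.44, 7.52 and 5.86 at 14, 19 and 24 h, against 9.69, 9.63 and 9.35 at 6, 7 and 8 h, a difference of -2.28 ± 0.51 (SE, adjusted p = 0.0192). Rrp12 fell by 2.28, Nolc1, a nucleolar phosphoprotein, by 2.09, and Nop2, an rRNA methyltransferase, by 2.06.

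The Tsr1 promoter stands for the list; it was chosen after the values were seen. The window, of the same extent (GRCm38.p6, plus strand), is chr11:74897830-74898129, and the capitals are CACGTG, the E-box that MYC and MAX can bind, which reads the same on both strands.
Tsr1: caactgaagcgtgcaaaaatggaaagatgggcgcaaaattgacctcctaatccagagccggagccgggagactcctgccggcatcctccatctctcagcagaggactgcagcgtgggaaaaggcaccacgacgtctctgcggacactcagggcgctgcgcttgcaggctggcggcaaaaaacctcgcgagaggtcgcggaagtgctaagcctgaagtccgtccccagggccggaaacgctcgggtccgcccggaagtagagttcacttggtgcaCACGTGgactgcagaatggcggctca
CACGTG was in 8 of 28 windows of fallen ribosome biogenesis genes (28.6%; 28 of 33 matched), against 7.24% of all promoters. Nearly all genes of this list fell, so the share describes the list and cannot be tied to the fall.

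Mitochondrial ribosomal protein genes fell in fewer of their members. Of 35, 11 fell and none rose, 27 had a downward slope, and the medians were -0.26, -0.55 and -1.03 at 14, 19 and 24 h. Without the 14 h array 28 of 35 passed. Mrps18b had a difference of -1.63 ± 0.32 (SE, adjusted p = 0.0121), and Mrpl12 and Mrpl19 fell by 1.48 and 1.29. Oxidative phosphorylation changed in 1 of 32 genes, Sdhd, a subunit of succinate dehydrogenase, which fell by 0.59, and the proteasome in 1 of 34, Psmd7, which fell by 0.97, with 1 of its 2 other probe sets lower too.

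Among metabolic genes, 7 of 23 glycolysis and hypoxia genes fell and none rose. Ldha, lactate dehydrogenase A, fell late. The arrays gave Ldha 11.67, 11.17 and 9.60 at 14, 19 and 24 h, against 12.33, 12.38 and 12.30 at 6, 7 and 8 h, a difference of -1.52 ± 0.41 (SE, adjusted p = 0.0348), with 24.3% of the change present at 14 h. Pgam1, Tpi1 and Pkm fell by 1.37, 1.28 and 1.25. Fatty acid synthesis fell in 5 of 17 genes, among them the elongase Elovl6 (-1.67) and Fasn, fatty acid synthase (-1.33). Of 19 sterol synthesis genes, 1 rose and 1 fell, no larger a share than the 5.74% and 10.2% over all genes, and their median of -0.29 was -0.04 after quantile normalization and 0.03 without the 24 h array. Dhcr7, the last step to cholesterol, was lower by 1.73 and Fdps higher by 0.66, the second not on its other probe set. Purine synthesis enzymes Gart, Ppat and Atic fell by 1.66, 1.54 and 1.38 (1 of 2 other probe sets of Ppat moved the same way), as 5 of the 16 purine genes did, and none rose.

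Stress genes went both ways. Of 32 genes of ATF4 and the amino acid response, 12 rose and 1 fell, with a median of 0.43. Ddit3, the CHOP transcription factor, led. The log2 values of Ddit3 were 10.62, 11.79 and 11.86 at 14, 19 and 24 h, against 8.63, 8.99 and 9.22 at 6, 7 and 8 h, a difference of 2.48 ± 0.31 (SE, adjusted p = 0.00331). Nupr1 rose by 2.43, Trib3, a pseudokinase, by 2.07 and Atf3 by 1.85. Of 16 heat shock genes, 7 fell and none rose. Hspa1b, an inducible HSP70, had a difference of -1.90 ± 0.27 (SE, adjusted p = 0.00527), and Hspd1, the mitochondrial chaperone, fell by 1.35. Of 21 genes of the endoplasmic reticulum stress response, 4 fell, led by Creld2 (-1.62) and the chaperone Hsp90b1 (-1.38), and 2 rose, Ern1, the stress sensor IRE1 (1.74), and Ppp1r15a, which undoes translation arrest (1.58).

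NRF2 targets of the antioxidant response fell in 6 of 17 and rose in 2. Txnrd1, thioredoxin reductase, had a difference of -1.85 ± 0.25 (SE, adjusted p = 0.00423), Pgd, of the pentose phosphate pathway, fell by 1.59 and Gsr, glutathione reductase, by 1.17. Of 11 genes listed under peroxide defence of red cells, 4 rose and 1 fell. Glrx, glutaredoxin, rose by 1.09 and Gpx4 by 0.38, while Selenbp1, a selenium-binding protein, fell by 1.48. Eif2ak1, the heme-regulated kinase of globin translation and not itself a peroxide defence enzyme, rose by 0.84.

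FOXO targets rose in 8 of 25 genes and fell in none. Besides Ccng2 and Cdkn1b they included Txnip, which binds thioredoxin and restrains glucose uptake. Txnip measured 7.30, 8.31 and 8.82 at 14, 19 and 24 h, against 6.54, 6.27 and 5.86 at 6, 7 and 8 h, a difference of 1.92 ± 0.35 (SE, adjusted p = 0.0103). Of 24 p53 targets, 5 rose and 3 fell, led by Trp53inp1 (1.72) and Cdkn1a (1.52) upward and the nuclease Aen (-1.59) downward. Among apoptosis genes, Bbc3, the BH3 protein PUMA, rose by 1.16 and Bid, another BH3 protein, fell by 1.89. They were the only calls of 19 pro-apoptotic genes, no larger a share than the 5.74% and 10.2% over all genes. Among 12 anti-apoptotic genes, Birc5, survivin, which also works at the spindle, rose by 0.69. Birc3 fell by 0.70, a fall that its other probe set did not share. No other anti-apoptotic gene was called, so these counts too were close to the shares over all genes.

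The pathway of the study's title was sampled across its parts. Socs3, a feedback inhibitor of JAK2, rose. For Socs3 the values were 7.83, 8.38 and 8.83 at 14, 19 and 24 h, against 6.89, 7.37 and 7.50 at 6, 7 and 8 h, a difference of 1.09 ± 0.27 (SE, adjusted p = 0.0262). Socs2, another member of the family, peaked at 19 h. Socs2 stood at 8.07, 8.56 and 7.99 at 14, 19 and 24 h, against 7.15, 7.31 and 7.52 at 6, 7 and 8 h, a difference of 0.88 ± 0.21 (SE, adjusted p = 0.0227). Cish, the CIS gene, overlapped between the groups. Cish read 7.88, 8.42 and 8.66 at 14, 19 and 24 h, against 8.01, 8.22 and 8.30 at 6, 7 and 8 h, a difference of 0.14 ± 0.22 (SE, adjusted p = 0.678), though its slope within the late hours was upward (adjusted p = 0.0305). Of 22 genes that restrain JAK2 or STAT5, 3 rose and 5 fell; Dok1, an adaptor, was the third that rose, by 1.21, and Inpp5d, the lipid phosphatase SHIP1, and Socs6 were among those that fell, by 1.11 and 1.01, with a second probe set of Inpp5d going up.

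Of 24 components of the Epo receptor pathway, 7 fell and none rose. Stat5a fell early and was lowest at 19 h. Its values were 5.39, 4.84 and 5.32 at 14, 19 and 24 h, against 7.08, 7.26 and 6.74 at 6, 7 and 8 h, a difference of -1.84 ± 0.22 (SE, adjusted p = 0.00307). Stat5b fell in steady order. The arrays gave Stat5b 5.90, 5.48 and 4.81 at 14, 19 and 24 h, against 6.69, 6.83 and 6.40 at 6, 7 and 8 h, a difference of -1.25 ± 0.27 (SE, adjusted p = 0.0175). The kinase Akt1 fell by 1.34, but only 1 of its 3 other probe sets moved the same way, and the mean of all its probe sets differed by -0.56. The adaptor Gab2 fell by 1.08, with 1 of its 2 other probe sets moving the same way. Epor had 9.62 to 10.11 late, against 9.84 to 10.07 at 6 to 8 h, with overlap, and Jak2 had 7.47, 8.06 and 7.57, against 7.33, 7.27 and 7.42, without overlap but short of the threshold (difference 0.36 ± 0.20 (SE, adjusted p = 0.242)). Of 23 STAT5 targets, 3 rose and 4 fell, among them Ccnd2, Id1 and Myc downward, and Pim1, a kinase target, had 9.43, 10.10 and 10.32, against 9.14, 9.47 and 9.34, a difference of 0.64 ± 0.23 (SE, adjusted p = 0.0841).

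**Figure D4:**
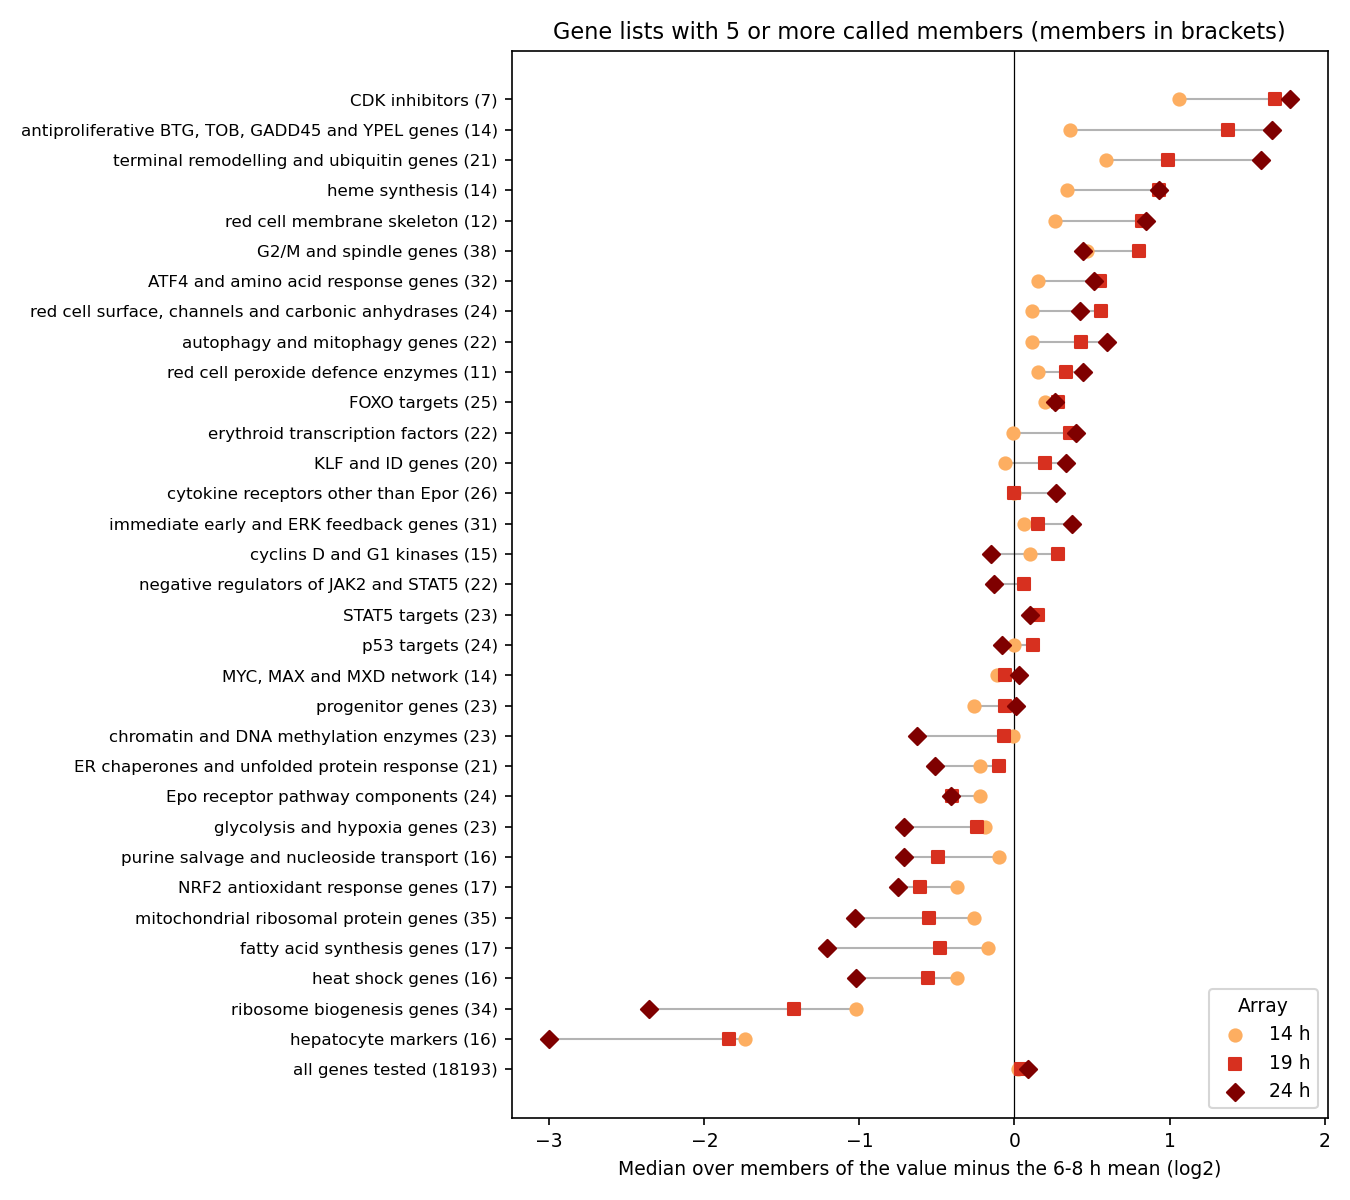
Points are the median over a list's members of the log2 value minus the 6 to 8 h mean at 14, 19 and 24 h, for lists with 5 or more called members, with all 18193 genes in the bottom row. CDK inhibitors, antiproliferative genes and terminal remodelling lie furthest right, and ribosome biogenesis genes and hepatocyte markers furthest left.

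Several further lists held calls in both directions, beside 5.74% higher and 10.2% lower over all genes. The immediate early and interferon response counts below were close to those shares. Chromatin enzymes fell in 5 of 23 and rose in 1, with Dnmt3b, a DNA methyltransferase, lower by 2.13 and Hdac5 higher by 0.96. The zinc list paired the fall of Slc39a10 and of Slc39a6 (-2.00), though 2 of 3 further probe sets of Slc39a6 went up, with rises of the metallothioneins Mt2 (1.29) and Mt1 (0.93), the last lost without the 24 h array. Among KLF and ID genes Klf6 rose by 1.39 and Klf9 fell by 1.36. Among 26 cytokine receptors, 6 rose and 3 fell, led by Ifnar2, an interferon receptor chain (1.41), and Il10rb (1.04). Of 31 immediate early genes 2 rose and 4 fell, of 21 interferon response genes 1 of each, with Cxcl10 lower by 2.00 and Ddx58 higher by 0.73, of 19 enucleation and actin genes 2 of each, Cit and Capn1 upward, Cenpv and Hdac2 downward (1 of 2 other probe sets of Hdac2 moved the same way), and of 10 histone genes 2 rose, H2ax and H2az2, and 1 fell, Macroh2a1.

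Among the markers of other cells, those of hepatocytes had the highest median at 6 to 8 h (7.01) and moved most. Of 16 hepatocyte markers, 13 fell and none rose, with medians of -1.74, -1.84 and -3.00 at 14, 19 and 24 h, and without the 24 h array 14 fell. Their summed signal was 11.40, 11.25 and 9.14 on the log2 scale at 14, 19 and 24 h, against 13.37, 12.96 and 12.92 at 6, 7 and 8 h. Hnf4a, a defining hepatocyte transcription factor (chosen after its value was seen), differed by -0.22 and was not called.

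The sort removed granulocytes, macrophages, megakaryocytes and lymphocytes, and their markers stayed mostly dim. Granulocyte markers rose in 2 of 13, S100a8 (1.95) and S100a9 (1.40), and fell in 2, Mpo (-1.34) and Prtn3 (-0.91). Their summed signal was 9.34 to 9.66 late, against 8.66 to 9.01 at 6 to 8 h. S100a8 had 8.45, 7.93 and 8.31 at 14, 19 and 24 h, against 5.99, 6.18 and 6.66 at 6, 7 and 8 h. Macrophage markers rose in 4 of 18, led by Lyz2 and Lyz1 (1.15 each), with a summed signal of 8.36 to 8.50 late, against 7.77 to 8.17. Megakaryocyte markers rose in 3 of 11, with Pf4 (1.63) the largest and a summed signal of 9.15 to 9.41 late, against 8.51 to 8.59. Mast cell markers rose in 1 of 10, endothelial and stromal in 1 of 15 and lymphoid by limma in 0 of 12 (3 at an unadjusted p under 0.05), with summed signals of 6.68 to 6.92, 7.73 to 8.02 and 7.63 to 7.95 late, against 6.55 to 6.63, 7.55 to 7.67 and 7.49 to 7.52. Over all genes 5.74% rose, and the lower quartile was 3.24 to 3.33 at 6 to 8 h and 3.38 to 3.54 late. After quantile normalization 0 mast cell and 0 endothelial and stromal markers were called higher. By that scaling 3 macrophage, 2 megakaryocyte and 2 granulocyte markers still were. The part of cells with these markers in the other gene groups was not tested.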

How the data were processed

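RNA of fetal liver CFU-E cells was measured on mouse expression arrays, 1 per sample. The deposited values lie between 1.37 and 14.56 and were taken as log2 values from that range. The authors' summarising and scaling of the probe intensities was not given in the sources used here. Arrays have no sequencing depth, and their number limits the precision.

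Of 45101 probe sets, 34945 name 1 gene in the platform annotation, 932 name several and 9224 are unnamed here. For each of 18193 genes the brightest probe set (by mean over the 20 arrays) was kept, and dim genes were not filtered out. For the 1377 genes called at 2-fold or more, 1351 of 1573 other probe sets (85.9%) moved the same way. Gene symbols were checked against RefSeq (GRCm38.p6), and promoters are RefSeq windows of that build, at 27025 starts.

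The 6 arrays were grouped by the hour in their titles and fitted with limma 3.58.1 (lmFit, then eBayes with a mean-variance trend, under R 4.3.3; Benjamini-Hochberg over all genes; adjusted p under 0.05), once for the difference between groups and once with a slope centred on 19 h within the late group. Tables and figures were made with Python 3.11.15. On simulated data for the group comparison of 18193 genes, changes of 2, 1 and 0.5 log2 units were called in 100%, 86.6% and 9.09% of genes, with 9 false calls. The simulated arrays had independent noise of the same spread in both groups, and a flat shift in 200 genes. They had no drift within a group, unlike the arrays here, so these rates need not hold for the data.

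The genes named are the 15 largest rises and 15 largest falls, up to 4 called members of each of 50 lists and a set of erythroid and Epo pathway genes. The members and lists were chosen with earlier results of these data known. Alternatives covered scaling, probe set choice, dim genes, the variance model, drift within groups and leaving out each array. Of the lists' 1095 entries, 94 were not analysed here.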

Additional observations from a re-analysis of the deposited data

How the results depend on the processing

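The difference between the 14 to 24 h and 6 to 8 h arrays was called in 2896 genes, and 8 planned changes of scaling, probe set, dim-gene filter and variance moderation gave 2451 to 3011. Letting the arrays without Epo lend spread gave 5494, a slope on the hour within each group 5830, and 1 linear trend over the 6 hours 6825. Leaving out 1 array at a time gave 169 to 4894. Of 176 named genes that were called, 36, 42, 44 and 106 remained called without the 7, 19, 6 and 8 h arrays, and 175 and 172 without 14 and 24 h; none reversed when an array was left out, and the cause of the lost calls was not tested. Without 24 h, Dcn, Flt3, Mrc1 and Mt1 lost their call. The slope was called in 3047 genes, with 2277 to 3297 under its alternatives; 30.9% of its calls were upward, against 43.9% after quantile normalization. The share of 2-fold genes in steady order was 80.8%, and 82.9% after quantile normalization. Leaving out probe sets prone to cross-hybridisation reversed Birc3 to 0.07, Gab2 to 0.14 and Hbb-b2 to -0.09, and choosing the probe set over the 6 arrays reversed Igf2bp1 to 0.10, none of which passed the test. No paired analysis was possible because the labels give hours and no replicate numbers.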
